A study of Mus musculus with 9 samples.

Results

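Cholesterol and fatty acid synthesis is covered here by 31 genes that were chosen by name, out of 54361 genes in the table. They are 8 genes of the mevalonate and isoprenoid steps, 10 genes that lead from squalene to cholesterol, 5 genes of regulation and sterol transport, 4 genes of fatty acid synthesis and 4 fatty acid desaturases. The rule uses gene names alone. All 31 had a mean of at least 5 normalized counts over the 9 libraries, the level from which genes were tested. None was thus lost to that filter, but Fads2 passed it only through its level in the group labelled naive.

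The study asked how eosinophils of the mouse lung differ once tumour cells have reached that organ. All mice were C57BL/6. The naive group (n = 3) received saline alone by tail vein, and the Siglec-F high (n = 3) and Siglec-F int (n = 3) groups came from mice whose tail vein received PyMT tumour cells, named after the polyoma middle T antigen. Siglec-F is a surface lectin of eosinophils by which the labels separate a high and an intermediate (int) fraction, while the naive libraries carry no such fraction in their labels. Each library is a pool of 3 to 4 mice, so n counts pools. The injection and the Siglec-F gate both separate the naive group from the other groups, and their parts cannot be told apart. Age, sex and the time after injection are not given in the sources used here.

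Depth ran from 2205949 to 12495639 reads per library, and values below are normalized counts as deposited. Of 11 eosinophil markers most were low and uneven between libraries of a group, and the labels' cell type is not taken as shown. Siglecf itself stood at 12.6, 31.3 and 4.18 in the naive libraries, 17.6, 3.58 and 14.5 in Siglec-F high and 6.98, 20.2 and 11.1 in Siglec-F int. Ccr3, the eotaxin receptor, and Prg3, a granule protein, were at 0 in every naive library, while Ccr3 reached 24.1 in Siglec-F high library 1. Prg2, the major basic protein, was between 0 and 15.0 in naive, and its top values were 379.5 and 106, from the libraries numbered 3 of the high and int fractions. Ear2, a ribonuclease of the eosinophil family, was the most abundant, at 315, 469 and 144 in naive, 568, 375 and 283 in Siglec-F high and 117, 269 and 125 in Siglec-F int. A list of 12 pigment cell markers summed to 80555 to 85469 in the naive libraries, 542 to 1577 in Siglec-F high and 1047 to 1919 in Siglec-F int. Group names are therefore used below as labels, and each direction is drawn between libraries as labelled. In bulk RNA, fewer cells of a type and less RNA per cell cannot be told apart.

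The libraries of Siglec-F high differed from each other more than those of the other groups. Of the 31 genes, 17 spread by more than 1 log2 unit within it, against 9 in naive and 7 in Siglec-F int. Library 1 was the lowest of its group for 13 genes and the highest for 16, and library 2 for 12 and 14. The Spearman correlation of each library's values, as deviations from the mean of all libraries, with GC content over all genes was -0.54, 0.12 and -0.30 in Siglec-F high libraries 1, 2 and 3, while the naive libraries lay between 0.35 and 0.38 and the Siglec-F int libraries between -0.20 and -0.03. Since library 1 had the lowest of these correlations, changes of call without it, and values it moves by over 1.5 times in called genes, are given beside the genes.

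Cells build cholesterol from acetyl-CoA through mevalonate, isoprenoid diphosphates, squalene and lanosterol, and build fatty acids from malonyl-CoA that acetyl-CoA carboxylase makes from citrate-derived acetyl-CoA. Most genes of both routes are targets of the SREBP transcription factors, encoded by Srebf1 and Srebf2. When membrane sterol is low, the escort protein Scap carries SREBP from the endoplasmic reticulum to the Golgi for cleavage, and when sterol is high the Insig proteins hold it back. Fatty acid desaturases then place double bonds that set membrane fluidity and supply precursors of lipid mediators.

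SREBP binds promoters together with the factors NF-Y and Sp1. Promoter windows are shown for 2 genes that were higher in Siglec-F high than in naive (Hmgcs1 and Idi1) and 2 that were lower (Mvd and Fasn). Each runs from 250 bases before to 50 bases after a transcription start, from RefSeq on GRCm38.p6, 5′ to 3′ on the strand of the gene. Capitals mark matches on either strand to 4 motifs. TCACNCCAC, where N is any base, is a form of the sterol regulatory element. NF-Y is known to bind the letters CCAAT. Sp1 is known to bind the GC box, which is written GGGCGG. The E-box that basic helix-loop-helix factors bind was searched as CACGTG. The windows are chr13:119690101-119690400 (plus strand), chr13:8885356-8885655 (plus strand), chr8:122443373-122443672 (minus strand) and chr11:120824498-120824797 (minus strand).
Hmgcs1 promoter: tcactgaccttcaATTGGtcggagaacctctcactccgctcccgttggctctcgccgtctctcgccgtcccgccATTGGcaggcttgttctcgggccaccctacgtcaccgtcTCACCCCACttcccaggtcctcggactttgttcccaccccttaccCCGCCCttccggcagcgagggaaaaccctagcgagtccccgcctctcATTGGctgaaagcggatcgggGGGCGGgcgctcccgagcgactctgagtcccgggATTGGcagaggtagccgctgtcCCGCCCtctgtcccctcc
Idi1 promoter: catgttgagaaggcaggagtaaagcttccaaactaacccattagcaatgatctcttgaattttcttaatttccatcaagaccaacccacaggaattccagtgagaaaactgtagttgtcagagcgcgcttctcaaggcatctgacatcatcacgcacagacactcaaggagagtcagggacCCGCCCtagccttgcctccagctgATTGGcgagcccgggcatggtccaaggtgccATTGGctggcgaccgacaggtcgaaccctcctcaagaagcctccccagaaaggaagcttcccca
Mvd promoter: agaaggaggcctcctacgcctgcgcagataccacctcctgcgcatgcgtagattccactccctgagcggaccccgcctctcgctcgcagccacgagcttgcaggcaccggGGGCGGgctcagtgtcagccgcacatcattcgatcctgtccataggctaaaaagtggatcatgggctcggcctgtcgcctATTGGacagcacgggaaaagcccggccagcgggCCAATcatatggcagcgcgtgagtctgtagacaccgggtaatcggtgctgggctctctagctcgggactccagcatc
Fasn promoter: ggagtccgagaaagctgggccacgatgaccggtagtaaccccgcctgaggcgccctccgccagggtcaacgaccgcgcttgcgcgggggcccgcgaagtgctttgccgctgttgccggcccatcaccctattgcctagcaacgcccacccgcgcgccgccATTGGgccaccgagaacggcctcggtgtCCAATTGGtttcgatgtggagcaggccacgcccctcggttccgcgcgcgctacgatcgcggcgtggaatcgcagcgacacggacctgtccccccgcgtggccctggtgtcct

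RefSeq windows were found for 24 of the 31 genes, 31 windows in all, and Fdft1, Sqle, Scd1, Scd2, Fdps, Fads1 and Stard4 had no entry. TCACNCCAC was found in 1 window, that of Hmgcs1, starting 137 bases before the transcription start. This is 3.23% of the members' windows, against 1.24% of all 32851 windows of the same length. CCAAT was found in 67.7% of the members' windows and 37.4% of all windows, and GGGCGG in 71.0% and 35.7%. CACGTG was found in 12.9% and 7.15%. The Fasn window holds overlapping CCAAT matches on opposite strands. The genes that were higher and those that were lower both carried CCAAT, with 4 matches in Hmgcs1, 2 in Idi1, 2 in Mvd and 3 in Fasn. A match describes the letters only.

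Against naive, the 31 genes did not move as one. In Siglec-F high, Hmgcs1, Idi1 and Scd1 rose, 12 genes fell and 16 were not called. In Siglec-F int, 7 genes fell, none rose and 24 were not called. Calls are those of limma at an adjusted p under 0.05 over all 13642 genes tested, with fold changes on the log2(value + 1) scale, which understates the change of low genes, and given ± SE. The same test called 14.7% of all genes higher and 16.6% lower in Siglec-F high, and 12.0% higher and 10.3% lower in Siglec-F int. The members' median log2 fold change was -0.77 in Siglec-F high and -0.82 in Siglec-F int, beside -0.11 and -0.02 over all genes tested. Both comparisons use the same 3 naive libraries, so their values are set side by side and are not independent.

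The 3 libraries of Siglec-F high lay above all 3 naive libraries for 5 of the 31 genes and below them for 15, where 20.2% and 26.3% of all genes did so. The 3 libraries of Siglec-F int lay above for 2 genes and below for 17, against 23.3% and 27.6% of all genes. The summed level of the 31 genes was 12042, 11884 and 12889 in the naive libraries, 9714, 7395 and 7309 in Siglec-F high and 6700.0, 5097 and 6610.3 in Siglec-F int. On the deposited scale, no library of 1 group reached into the range of another. Total signal was 4390979 for library 3 of Siglec-F high against 3952362 for library 3 of Siglec-F int. The order of these libraries may thus depend on the scaling, and the sums were not tested at equal totals. Scd2 alone averaged 2949 (naive), 889 (high) and 654 (int), beside 12272, 8139 and 6136 for the sum. This gene therefore weighs heavily in the sums. Exons of Hmgcs1, Idi1, Ggps1, Fdft1, Lss, Cyp51, Srebf1 and Elovl6 overlap a gene on the opposite strand, and whether reads were counted by strand is not given in the sources used here, so reads of these pairs may be mixed.

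Acat2, Dhcr7, Fasn and Scd2 were the genes called lower in both comparisons under each of the 22 other settings. The number of genes called depended on single libraries. In Siglec-F high the 12 lower genes became 7, 4 and 6 without naive libraries 1, 2 and 3, and the 3 higher genes became 0, 1 and 1 without naive library 1, naive library 2 and Siglec-F high library 3. Over all genes, the 2267 called lower became 1340, 1329 and 1338, and the 1999 called higher became 1418, 1690 and 1455. In Siglec-F int the 7 lower genes became 4 without naive library 2, Siglec-F int library 1 or Siglec-F int library 3. Over all genes, the 1402 called lower in Siglec-F int then became 901, 681 and 651. Without Siglec-F high library 1, which enters that fit through the shared spread, 15 genes were lower and 3 (Hmgcs1, Idi1 and Ggps1) higher, where 20.8% and 18.6% of all genes were called; without Siglec-F int library 2, Hmgcs1 alone was higher.

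**Figure D1:**
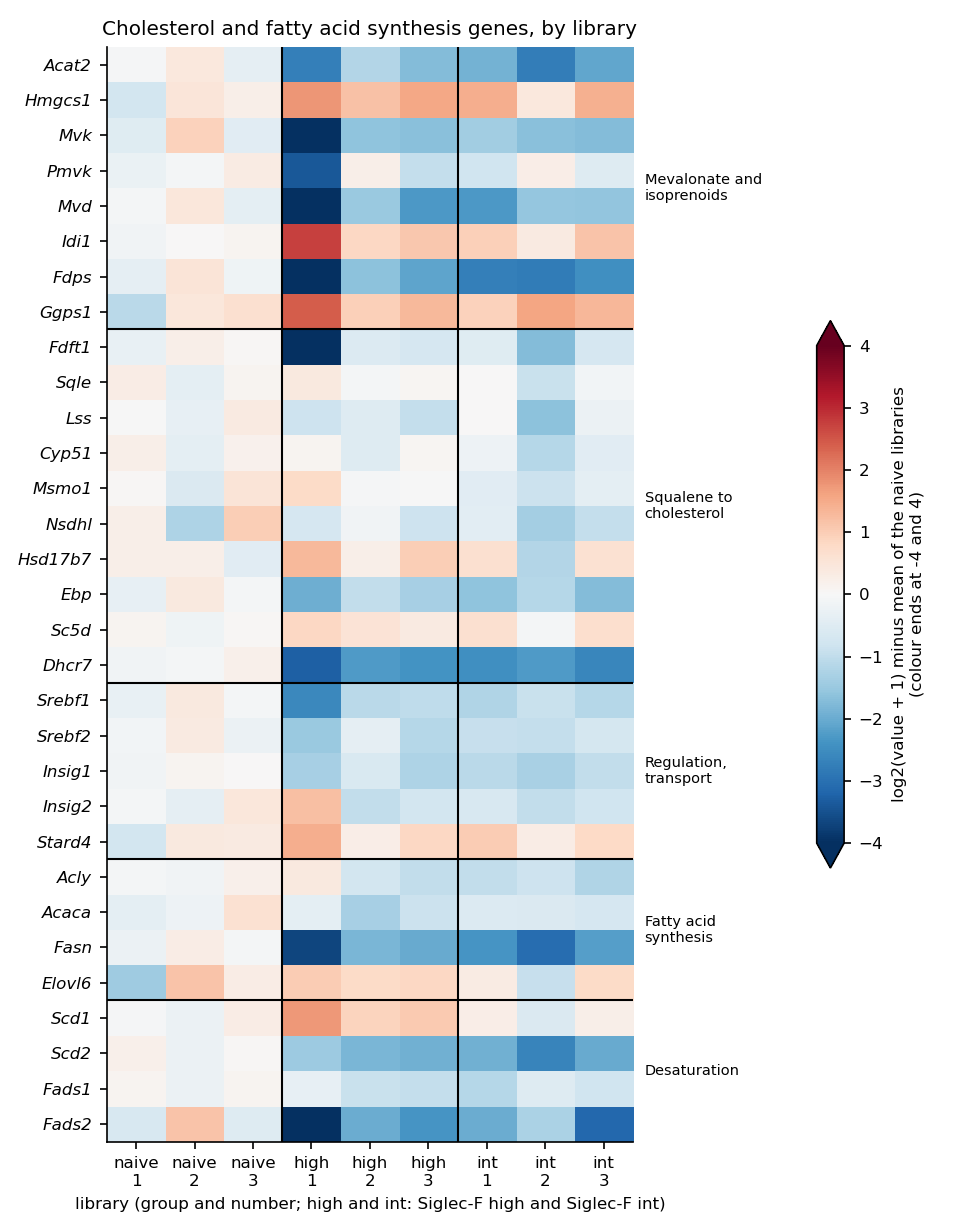
Level of each of the 31 genes in each of the 9 libraries, as log2(value + 1) minus the mean of the 3 naive libraries, with genes as rows in pathway order and libraries as columns. Blue is below and red above the naive mean, and the colour scale ends at -4 and 4. Acat2, Dhcr7, Fasn and Scd2 are blue in all 6 libraries from tumour-injected mice, while Hmgcs1, Idi1 and Ggps1 are red, and Siglec-F high library 1 is the deepest blue for Mvd, Mvk and Fdft1.

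**Figure D2:**
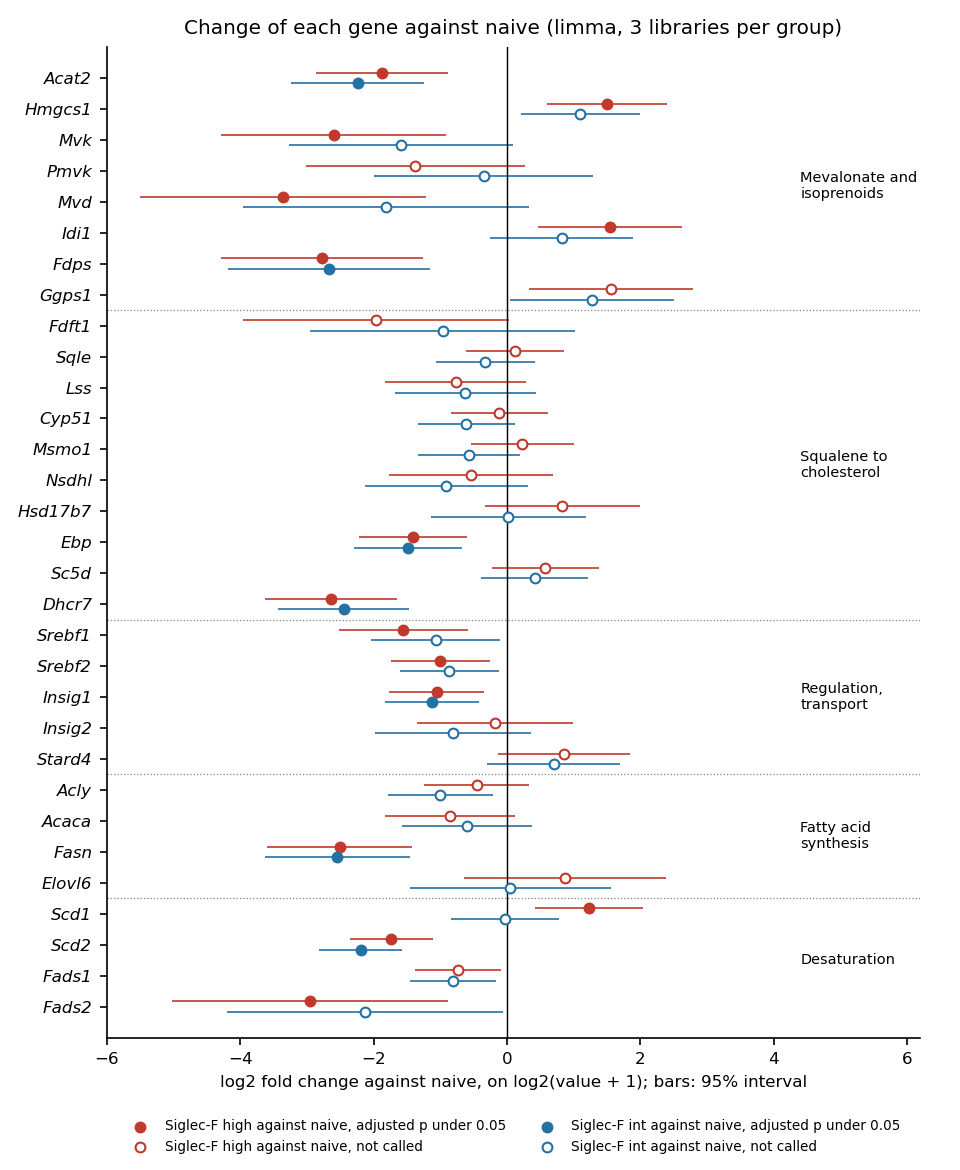
log2 fold change of each gene against naive, with 95% intervals from limma, for Siglec-F high (red) and Siglec-F int (blue), 3 libraries per group. Filled points passed an adjusted p of 0.05 and open points did not, which leaves 15 filled red points and 7 filled blue points.

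In the mevalonate and isoprenoid steps, 2 of 8 genes rose and 4 fell in Siglec-F high, and 2 fell in Siglec-F int. Over all genes, 14.7% were called higher and 16.6% lower in Siglec-F high, and 12.0% and 10.3% in Siglec-F int. Hmgcs1, the HMG-CoA synthase that commits acetyl units to mevalonate (ENSMUSG00000093930.2; chromosome 13, 119690379 to 119708260 on GRCm38), was measured at 110.1, 258 and 218 normalized counts in the naive libraries, 631, 415 and 544 in the Siglec-F high libraries and 505, 247 and 496 in the Siglec-F int libraries. Its Siglec-F high libraries all lay above naive, while Siglec-F int library 2 fell within the naive range. The log2 fold change was 1.503 ± 0.41 (adjusted p = 0.0197) in Siglec-F high and 1.103 ± 0.41 (adjusted p = 0.0755) in Siglec-F int. Idi1, the isomerase that makes dimethylallyl diphosphate (ENSMUSG00000058258.14; chromosome 13, 8885501 to 8892451), stood at 73.4, 80.8 and 87.7 normalized counts in the naive libraries, 539.6, 144 and 169.7 in the Siglec-F high libraries and 158, 104 and 178 in the Siglec-F int libraries. All 6 libraries from tumour-injected mice lay above naive, and Siglec-F high library 1 was far above the other 5. Idi1 rose, at 1.55 ± 0.49 (adjusted p = 0.0352) in Siglec-F high and was at 0.82 ± 0.49 (adjusted p = 0.247) in Siglec-F int. Ggps1, which makes geranylgeranyl diphosphate for protein prenylation, followed the same order without a call, at 1.56 ± 0.56 (adjusted p = 0.0541) and 1.27 ± 0.56 (adjusted p = 0.125), with all 6 libraries above naive.

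Acat2 and Fdps were called lower in both comparisons. Acat2, the cytosolic thiolase of the first condensation (ENSMUSG00000023832.14; chromosome 17, 12942890 to 12960747), stood at 403, 568 and 325 normalized counts in the naive libraries, 62.5, 187 and 125 in the Siglec-F high libraries and 114, 61.5 and 98.0 in the Siglec-F int libraries. No library of the tumour-injected mice reached the naive range. Acat2 fell, at -1.88 ± 0.45 (adjusted p = 0.0120) in Siglec-F high and at -2.24 ± 0.45 (adjusted p = 0.00679) in Siglec-F int. Fdps, the farnesyl diphosphate synthase (ENSMUSG00000059743.12; chromosome 3, 89093588 to 89101959), stood at 163, 299.6 and 183 normalized counts in the naive libraries, 7.68, 65.6 and 47.8 in the Siglec-F high libraries and 30.1, 29.1 and 36.7 in the Siglec-F int libraries. Its naive libraries were again the 3 highest, and it was called lower at -2.78 ± 0.69 (adjusted p = 0.0139) and -2.67 ± 0.69 (adjusted p = 0.0201).

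Mvk and Mvd, which phosphorylate and decarboxylate the mevalonate chain, were called lower in Siglec-F high and not called in Siglec-F int. Mvd (ENSMUSG00000006517.5; chromosome 8, 122433601 to 122443422) stood at 395, 573 and 321 normalized counts in the naive libraries, 4.39, 147 and 84.4 in the Siglec-F high libraries and 83.7, 142 and 138 in the Siglec-F int libraries, and its fold changes were -3.35 ± 0.97 (adjusted p = 0.0257) and -1.81 ± 0.97 (adjusted p = 0.203). Mvk stood at 88.3, 237 and 89.4 normalized counts in the naive libraries, 4.39, 40.0 and 38.4 in the Siglec-F high libraries and 46.7, 38.3 and 36.7 in the Siglec-F int libraries, with -2.60 ± 0.76 (adjusted p = 0.0273) and -1.59 ± 0.76 (adjusted p = 0.158). For both genes every naive library exceeded every other library, and Siglec-F high library 1 was lowest by a wide margin. The difference between Siglec-F high and int itself was -1.54 ± 0.97 (adjusted p = 0.797) for Mvd and -1.01 ± 0.76 (adjusted p = 0.797) for Mvk, so neither was shown to differ between them. Without Siglec-F high library 1, both were called lower in Siglec-F int as well, at the same fold change, with adjusted p = 0.00198 for Mvd and 0.0133 for Mvk from limma. Pmvk, the kinase between them, was at -1.37 ± 0.75 (adjusted p = 0.174) and -0.35 ± 0.75 (adjusted p = 0.761), with overlapping groups, and at -0.37 in Siglec-F high without library 1.

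Without Siglec-F high library 1 the fold changes in Siglec-F high were -1.89 for Mvd, -1.63 for Mvk, -1.87 for Fdps and 0.95 for Idi1, and the call of Idi1 was lost. Single removals also ended the calls of Mvk and Mvd (any naive library), of Fdps (naive library 2), of Hmgcs1 (naive library 1 or Siglec-F high library 3) and of Idi1 (any naive library, Siglec-F int library 1 or 3). Over all removals of 1 library, Hmgcs1 ran from 1.14 to 1.75, Idi1 from 0.95 to 1.90, Mvk from -3.09 to -1.63, Mvd from -4.28 to -1.89 and Fdps from -3.34 to -1.87. In Siglec-F int the call of Fdps was lost without naive library 2 or 3 or any Siglec-F int library, with values from -2.84 to -2.41. Transcript letters are shared with other genes in 50-base windows for 45.9% of Acat2 (with Acat3), 21.3% of Idi1 (with Gm13502 and others) and 11.7% of Fdps (with the overlapping Gm43738 and others), so their reads may have been split or lost.

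From squalene to cholesterol, 2 of 10 genes fell in each comparison, the same 2, and none rose. Among all genes, 16.6% were called lower in Siglec-F high and 10.3% in Siglec-F int, with 14.7% and 12.0% called higher. Dhcr7, the reductase that makes cholesterol from 7-dehydrocholesterol (ENSMUSG00000058454.15; chromosome 7, 143823145 to 143848410), stood at 132, 141 and 171 normalized counts in the naive libraries, 14.3, 29.8 and 27.3 in the Siglec-F high libraries and 25.8, 29.5 and 23.4 in the Siglec-F int libraries. The highest library of the tumour-injected mice was thus far below the lowest naive library. Dhcr7 fell, at -2.64 ± 0.45 (adjusted p = 0.00250) in Siglec-F high and at -2.45 ± 0.45 (adjusted p = 0.00436) in Siglec-F int, and values over all removals of 1 library ran from -2.83 to -2.33 and -2.53 to -2.34. Ebp, the sterol isomerase that also binds emopamil (ENSMUSG00000031168.14; chromosome X, 8185329 to 8193512), stood at 261, 427 and 312 normalized counts in the naive libraries, 84.5, 165 and 130.5 in the Siglec-F high libraries and 107, 149 and 97.1 in the Siglec-F int libraries. Its groups did not overlap with naive, and it was called lower at -1.41 ± 0.37 (adjusted p = 0.0167) and -1.49 ± 0.37 (adjusted p = 0.0167). The call of Ebp was lost in both comparisons without naive library 2, and in Siglec-F int also without library 1 or 3 of that group, with values from -1.63 to -1.15 and -1.67 to -1.30.

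The other 8 genes of this stretch were not called. Sqle, the squalene epoxidase that limits flux into sterols, stood at 461, 281 and 398 normalized counts in the naive libraries, 485, 354 and 391 in the Siglec-F high libraries and 377, 202 and 347 in the Siglec-F int libraries. The 3 groups overlapped, with log2 fold changes of 0.13 ± 0.33 (adjusted p = 0.793) and -0.32 ± 0.33 (adjusted p = 0.518) and 95% intervals of -0.61 to 0.86 and -1.06 to 0.42. Cyp51, the lanosterol demethylase, was at 895 ± 197 (SD, n = 3) in naive, 828 ± 182 in Siglec-F high and 597 ± 184 in Siglec-F int. Msmo1, the sterol methyl oxidase, was at 1024 ± 375, 1188 ± 398 and 663 ± 113. Their fold changes in Siglec-F int were -0.61 ± 0.33 and -0.57 ± 0.35, against -0.11 ± 0.33 and 0.23 ± 0.35 in Siglec-F high.

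Fdft1, squalene synthase, showed the widest spread of the 10 in Siglec-F high. It stood at 406, 599 and 525 normalized counts in the naive libraries, 18.6, 346 and 315 in the Siglec-F high libraries and 356, 152 and 317 in the Siglec-F int libraries. Every naive library exceeded the others, but Siglec-F high library 1 sat far below the rest, and the fold changes were -1.97 ± 0.90 (adjusted p = 0.115) and -0.96 ± 0.90 (adjusted p = 0.468). Without that library the first was -0.61, and in Siglec-F int the same value was then called through the smaller spread. Its exons overlap those of Ctsb on the opposite strand. The remaining members were Lss, which cyclizes squalene epoxide to lanosterol (-0.77 ± 0.48 and -0.63 ± 0.48), and Nsdhl (-0.54 ± 0.56 and -0.91 ± 0.56) and Hsd17b7 (0.83 ± 0.53 and 0.02 ± 0.53), which act in C4 demethylation. Sc5d, the desaturase of lathosterol, was at 0.58 ± 0.36 and 0.42 ± 0.36. None of these 4 was called, and the 3 Siglec-F high libraries of Sc5d, at 129, 106 and 94.7, lay above naive at 79.1, 65.1 and 75.2.

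Of the 5 genes of regulation and transport, 3 fell in Siglec-F high and 1 in Siglec-F int. The shares of all genes called lower were 16.6% and 10.3%. Srebf1, whose SREBP-1 products favour fatty acid genes (ENSMUSG00000020538.15; chromosome 11, 60199089 to 60222581), stood at 257, 422 and 299 normalized counts in the naive libraries, 52.6, 149.7 and 158 in the Siglec-F high libraries and 138, 173 and 146 in the Siglec-F int libraries. Srebf2, whose product favours sterol genes (ENSMUSG00000022463.8; chromosome 15, 82147181 to 82205379), stood at 562, 779 and 525 normalized counts in the naive libraries, 217, 477 and 278 in the Siglec-F high libraries and 323, 314 and 374 in the Siglec-F int libraries. In both genes the 3 naive libraries were the highest of the 9. Srebf1 fell, at -1.56 ± 0.44 (adjusted p = 0.0230) in Siglec-F high and Srebf2 at -0.997 ± 0.34 (adjusted p = 0.0443), while in Siglec-F int they were at -1.07 ± 0.44 (adjusted p = 0.105) and -0.87 ± 0.34 (adjusted p = 0.0886). Without Siglec-F high library 1 both were called in Siglec-F int (limma adjusted p = 0.00941 and 0.0242) and Srebf2 was not called in Siglec-F high (-0.75). For neither gene was the difference between high and int called, at -0.49 ± 0.44 (adjusted p = 0.800) and -0.13 ± 0.34 (adjusted p = 0.926).

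Insig1, the retention factor that is itself an SREBP target (ENSMUSG00000045294.11; chromosome 5, 28071363 to 28078662), stood at 235, 279 and 261 normalized counts in the naive libraries, 101, 170.0 and 110.0 in the Siglec-F high libraries and 121, 104 and 129 in the Siglec-F int libraries. It fell in both comparisons, at -1.05 ± 0.32 (adjusted p = 0.0314) and -1.12 ± 0.32 (adjusted p = 0.0308), without overlap. Insig2, its paralogue, stood at 169, 138 and 241 normalized counts in the naive libraries, 407, 89.5 and 106 in the Siglec-F high libraries and 113, 88.9 and 103 in the Siglec-F int libraries. Siglec-F high library 1 was its highest library while the other 2 of that group were below naive, and it was not called at -0.18 ± 0.53 (adjusted p = 0.815) and -0.81 ± 0.53 (adjusted p = 0.297), nor without that library, at -0.86 in Siglec-F high. Stard4, a carrier that moves sterol between membranes, was not called either, at 0.86 ± 0.45 (adjusted p = 0.161) and 0.70 ± 0.45 (adjusted p = 0.284).

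The calls of Srebf2 and Insig1 were near the threshold. That of Srebf2 held only without Siglec-F high library 2 among the 9 removals of 1 library, with values from -1.31 to -0.75. That of Insig1 in Siglec-F high was lost without any naive library, Siglec-F high library 3 or Siglec-F int library 1 or 3 (-1.28 to -0.91), and in Siglec-F int without any naive or Siglec-F int library (-1.19 to -1.04). The call of Srebf1 was lost without naive library 2 or 3 (-1.83 to -1.05).

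**Figure D3:**
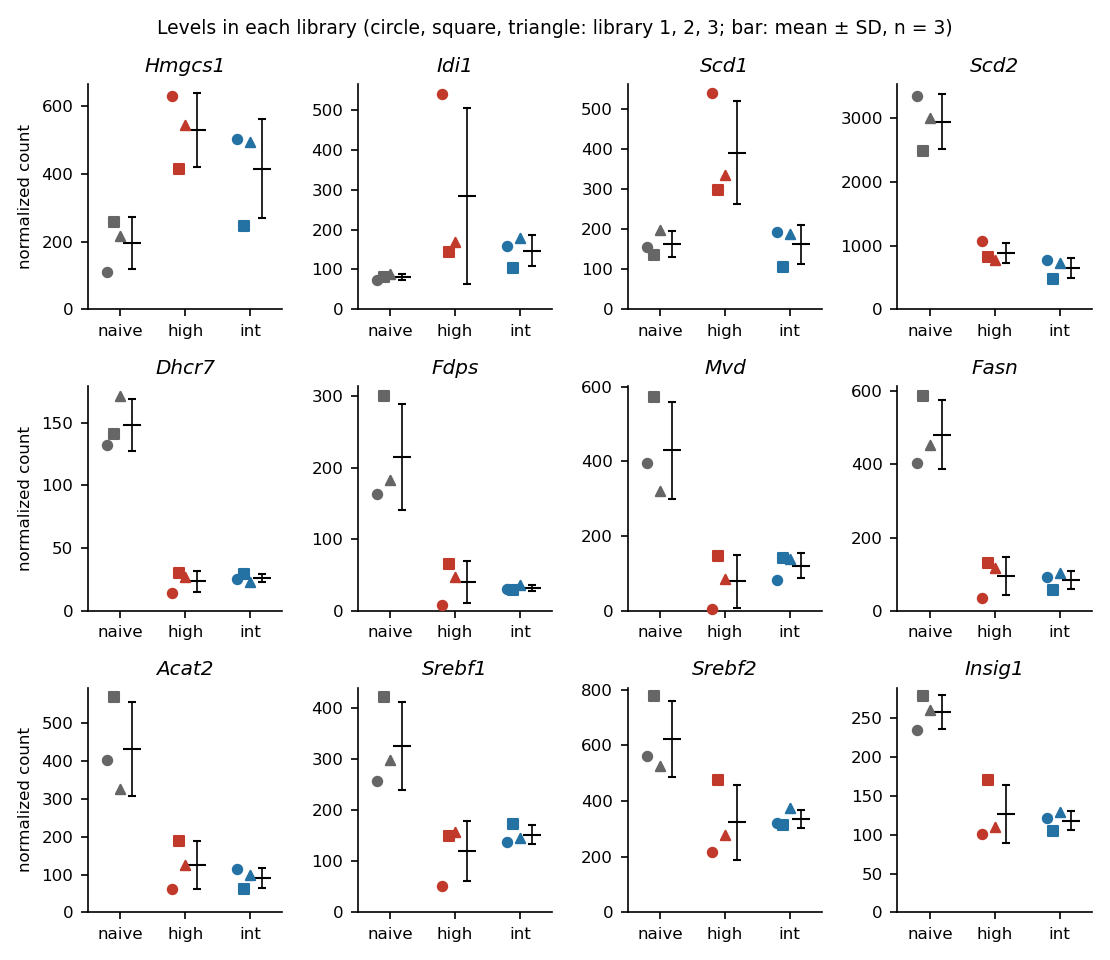
Normalized counts of 12 genes in each library of the naive (grey), Siglec-F high (red) and Siglec-F int (blue) groups, on linear axes from 0, with the mean ± SD (n = 3) beside the points. Circles, squares and triangles are libraries 1, 2 and 3. Scd2, Dhcr7, Fasn and Acat2 show naive libraries clear of all others, and Idi1 shows the single high value of Siglec-F high library 1 at 539.6.

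Among the 4 genes of fatty acid synthesis, Fasn fell in both comparisons and the others were not called. The share of all genes called lower was 16.6% in Siglec-F high and 10.3% in Siglec-F int. Fasn, the synthase that makes palmitate (ENSMUSG00000025153.9; chromosome 11, 120805846 to 120824547), stood at 405, 586 and 452 normalized counts in the naive libraries, 36.2, 132 and 118 in the Siglec-F high libraries and 91.3, 56.0 and 103 in the Siglec-F int libraries. Its lowest naive library exceeded its highest other library by a wide margin. Fasn fell, at -2.51 ± 0.49 (adjusted p = 0.00520) in Siglec-F high and at -2.54 ± 0.49 (adjusted p = 0.00582) in Siglec-F int, with values over all removals of 1 library from -2.84 to -1.92 and -2.71 to -2.28.

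Acly, which splits citrate to supply acetyl-CoA, stood at 893, 849 and 1086 normalized counts in the naive libraries, 1225, 557 and 469.9 in the Siglec-F high libraries and 475, 528 and 409 in the Siglec-F int libraries. Siglec-F high library 1 was its highest library of all 9 and the other 5 libraries from tumour-injected mice lay below naive, with -0.45 ± 0.36 (adjusted p = 0.340) and -1.0 ± 0.36 (adjusted p = 0.0674). Without that library Acly was at -0.87 in Siglec-F high and was called lower in both comparisons. Acaca, the acetyl-CoA carboxylase, was at -0.85 ± 0.44 (adjusted p = 0.158) and -0.59 ± 0.44 (adjusted p = 0.358), and 52.6% of its 50-base windows are shared with Gm5182. Elovl6, which extends palmitate to stearate, stood at 11.5, 72.9 and 40.1 normalized counts in the naive libraries, 66.9, 56.7 and 58.0 in the Siglec-F high libraries and 40.8, 16.9 and 55.7 in the Siglec-F int libraries. Its groups overlapped and it was not called, at 0.87 ± 0.69 (adjusted p = 0.340) and 0.05 ± 0.69 (adjusted p = 0.965).

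The desaturases split. Scd2, a stearoyl-CoA desaturase (ENSMUSG00000025203.5; chromosome 19, 44293674 to 44306864), stood at 3357, 2488 and 3001 normalized counts in the naive libraries, 1067, 823 and 777 in the Siglec-F high libraries and 769, 469.8 and 722 in the Siglec-F int libraries. Its change of -1.73 ± 0.28 (adjusted p = 0.00212) in Siglec-F high and -2.19 ± 0.28 (adjusted p = 0.000936) in Siglec-F int had the smallest adjusted p of the 31 genes in both comparisons. Scd1, the neighbouring isoenzyme with the same reaction (ENSMUSG00000037071.2; chromosome 19, 44394455 to 44407879), stood at 155, 135 and 199 normalized counts in the naive libraries, 541, 299 and 337 in the Siglec-F high libraries and 193, 107 and 189 in the Siglec-F int libraries. It rose in Siglec-F high, at 1.23 ± 0.36 (adjusted p = 0.0280) with no overlap, and was at -0.03 ± 0.36 (adjusted p = 0.962) in Siglec-F int, where the libraries overlapped naive. The call of Scd1 was lost without naive library 1, naive library 2 or Siglec-F high library 3, with values from 0.98 to 1.40, while Scd2 ran from -1.87 to -1.63 and -2.33 to -1.97. Letters shared with other Scd genes or elsewhere cover 4.66% of the windows of Scd1 and 4.01% of those of Scd2.

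Fads1 and Fads2, the delta-5 and delta-6 desaturases of polyunsaturated fatty acids, both lay below naive. Fads1 stood at 747, 589 and 738 normalized counts in the naive libraries, 544, 368 and 356 in the Siglec-F high libraries and 313, 477 and 398 in the Siglec-F int libraries, without overlap, and was not called at -0.73 ± 0.29 (adjusted p = 0.0785) and -0.82 ± 0.29 (adjusted p = 0.0686). Without Siglec-F high library 1 it was called lower in both comparisons, at -0.92 (limma adjusted p = 0.0212) and -0.82 (adjusted p = 0.0180). Fads2 stood at 13.8, 49.5 and 15.0 normalized counts in the naive libraries, 0, 4.77 and 3.41 in the Siglec-F high libraries and 4.83, 8.43 and 1.58 in the Siglec-F int libraries, resting on 49, 12 and 34 reads per group. It was called in Siglec-F high at -2.96 ± 0.94 (adjusted p = 0.0358), with 0 reads in library 1, and was at -2.13 ± 0.94 (adjusted p = 0.126) in Siglec-F int, where it was called without Siglec-F high library 1 (limma adjusted p = 0.0481). The call in Siglec-F high was lost without any naive library, Siglec-F high library 1 or 3 or Siglec-F int library 1, over values from -3.44 to -2.18. Fads2 had a mean of 26.1 in naive, 2.73 in Siglec-F high and 4.95 in Siglec-F int. It passed the filter through naive alone, so a fall was favoured by how it entered the test.

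Siglec-F high against Siglec-F int asked whether the 2 fractions from tumour-injected mice differ. None of the 31 genes was called, and limma called 0.0% of all genes. At an unadjusted p under 0.05 there were 591 genes, 2 of them members (Scd1 and Msmo1). edgeR called 0 genes and DESeq2 called 6, none of them members. The members' median was 0.15, beside -0.08 over all genes. The 3 Siglec-F high libraries lay above the 3 Siglec-F int libraries for 4 members, Msmo1, Elovl6, Scd1 and Scd2, and below them for 0, where 5.52% and 5.75% of all genes did so. Scd1 had the largest positive difference, 1.26 ± 0.36 (adjusted p = 0.797) with a 95% interval of 0.46 to 2.07. That of Msmo1 was 0.81 ± 0.35, of Elovl6 0.82 ± 0.69 and of Scd2 0.46 ± 0.28. The intervals of Dhcr7 (-1.18 to 0.79) and Fasn (-1.06 to 1.12) include 0 but leave room for differences of about 1 log2 unit either way, so a like level in both fractions was not shown.

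Other genes of these routes were counted from lists that hold no member. Of 17 further sterol and isoprenoid genes, 1 rose and 4 fell in Siglec-F high, and 0 rose and 3 fell in Siglec-F int, with medians of -0.71 and -0.57. Of all genes tested, 14.7% were called higher and 16.6% lower in Siglec-F high, and 12.0% and 10.3% in Siglec-F int. Tmem97, the sigma-2 receptor of sterol trafficking, stood at 442, 938 and 674 normalized counts in the naive libraries, 44.97, 168 and 142 in the Siglec-F high libraries and 110.0, 117 and 142 in the Siglec-F int libraries, and fell, at -2.66 ± 0.49 (adjusted p = 0.00382) and -2.41 ± 0.49 (adjusted p = 0.00713). Scap, the escort of SREBP, stood at 107, 151 and 151 normalized counts in the naive libraries, 16.4, 50.1 and 42.6 in the Siglec-F high libraries and 31.7, 36.2 and 40.8 in the Siglec-F int libraries, and fell, at -2.00 ± 0.49 (adjusted p = 0.0130) and -1.87 ± 0.49 (adjusted p = 0.0211). Neither gene overlapped with naive in any library. Tm7sf2, a sterol C14 reductase, fell, at -4.38 ± 0.96 (adjusted p = 0.00835) in Siglec-F high, where library 1 was at 0, and was at -2.23 ± 0.96 (adjusted p = 0.118) in Siglec-F int, where it was called only without Siglec-F high library 1 or 2 among removals of 1 library. It rested on 192 reads in naive, 32 in Siglec-F high and 132 in Siglec-F int. Mbtps2, the site-2 protease that releases SREBP, was the 1 that rose, from 30.97, 39.1 and 43.4 in naive to 268, 88.3 and 98.1 in Siglec-F high, at 1.79 ± 0.48 (adjusted p = 0.0189), and was at 1.17 ± 0.48 (adjusted p = 0.104) in Siglec-F int. Mbtps2 was called there without Siglec-F high library 1. Its call in Siglec-F high was lost without naive library 1 (1.29 to 2.08 over all removals of 1 library), and that of Scap in Siglec-F int without naive library 2 or 3 or any Siglec-F int library (-2.04 to -1.78).

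Of 26 further genes of fatty acid supply and elongation, 22 were tested, and 2 rose and 6 fell in Siglec-F high, against 2 and 4 in Siglec-F int. The shares over all genes were 14.7% higher and 16.6% lower in Siglec-F high, and 12.0% and 10.3% in Siglec-F int. Acsl4, which activates arachidonate and related fatty acids, stood at 67.7, 83.4 and 83.5 normalized counts in the naive libraries, 1809.7, 578 and 620.1 in the Siglec-F high libraries and 623, 490.4 and 528 in the Siglec-F int libraries. It rose, at 3.46 ± 0.42 (adjusted p = 0.000499) and 2.79 ± 0.42 (adjusted p = 0.00173), with all 6 libraries several times above naive. Elovl5, an elongase of polyunsaturated fatty acids, rose, at 1.21 ± 0.34 (adjusted p = 0.0238) and 1.07 ± 0.34 (adjusted p = 0.0462). Elovl7, Tecr and Lpin1 fell in both comparisons: Elovl7, an elongase, at -2.40 ± 0.76 and -3.74 ± 0.76, Tecr, the reductase of the elongation cycle, at -1.45 ± 0.38 and -1.45 ± 0.38, and Lpin1, a phosphatidate phosphatase, at -1.42 ± 0.36 and -1.44 ± 0.36. Acsl4 in both comparisons and Elovl7 in Siglec-F int kept their calls in all removals of 1 library. Elovl7 rested on few reads, 150 in naive, 31 in Siglec-F high and 19 in Siglec-F int. In Siglec-F high, Elovl5 and Tecr lost theirs without naive library 2, Lpin1 without naive library 3, and Elovl7 without any naive library, Siglec-F high library 2 or 3 or Siglec-F int library 2. In Siglec-F int, calls were lost for Lpin1 without naive library 3 or any Siglec-F int library and for Tecr without naive library 2 or 3 or Siglec-F int library 1 or 3. That of Elovl5 there held only without Siglec-F high library 1.

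Of 14 genes of sterol efflux, esterification and the LXR response, 1 rose and 1 fell in Siglec-F high, and 2 rose and 0 fell in Siglec-F int. Beside this, 14.7% of all genes were called higher and 16.6% lower in Siglec-F high, and 12.0% and 10.3% in Siglec-F int. Abca1, the exporter of cholesterol that LXR induces, stood at 108, 10.4 and 77.7 normalized counts in the naive libraries, 1026, 445 and 668 in the Siglec-F high libraries and 505, 941 and 550.4 in the Siglec-F int libraries. It rose, at 3.87 ± 0.72 (adjusted p = 0.00400) and 3.797 ± 0.72 (adjusted p = 0.00526), without overlap. Lpcat3, an LXR target that places polyunsaturated chains in phospholipids, fell, at -2.70 ± 0.51 (adjusted p = 0.00440) in Siglec-F high and was at -1.33 ± 0.51 (adjusted p = 0.0861) in Siglec-F int, where it was called without Siglec-F high library 1 or 2. Soat2, which esterifies cholesterol, rose, at 2.19 ± 0.71 (adjusted p = 0.0478) in Siglec-F int and was at 1.49 ± 0.71 (adjusted p = 0.126) in Siglec-F high. It rested on 17 reads in naive, 64 in Siglec-F high and 248 in Siglec-F int. The calls of Abca1 in both comparisons and of Lpcat3 in Siglec-F high held in all removals of 1 library, while that of Soat2 held only without Siglec-F high library 1 (1.64 to 2.59).

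The fold changes of the 31 genes fell with the GC content of their transcripts. Across the 31 genes the Spearman correlation with GC content of the longest transcript was -0.84 in Siglec-F high and -0.74 in Siglec-F int, against -0.48 and -0.37 across 13639 genes. Genes are not independent replicates, and they share the same libraries. In Siglec-F high the 3 genes that rose had a median GC content of 43.1%, the 12 that fell 53.6% and the 16 not called 46.1%. Over all genes tested these medians were 44.8%, 53.4% and 49.1%, so the split of the calls by GC content was not particular to the 31 genes. Hmgcs1 has 43.1%, Idi1 41.9%, Mvd 59.0% and Fasn 57.9%.

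After the trend with GC content and transcript length was removed from each library, a step chosen after seeing the data, no member was higher in either comparison. Then 6 were lower in Siglec-F high (Acat2, Fdps, Dhcr7, Acaca, Fasn and Scd2) and 7 in Siglec-F int (Acat2, Fdps, Cyp51, Msmo1, Dhcr7, Fasn and Scd2). Of all genes, 9.87% were then higher and 12.3% lower in Siglec-F high, and 10.2% and 9.0% in Siglec-F int. Hmgcs1 moved to 0.66, Idi1 to 0.61 and Scd1 to 0.71 in Siglec-F high, and none kept its call. Calls of lower genes were also lost. Mvd went from -3.35 to -1.86, Mvk from -2.60 to -1.35 and Fads2 from -2.96 to -2.02 in Siglec-F high. There Srebf1 went from -1.56 to -0.46 and Srebf2 from -0.997 to -0.15. Insig1 was at -0.97 (limma adjusted p = 0.0551) in Siglec-F high and -1.01 (adjusted p = 0.0547) in Siglec-F int. Ebp was at -0.82 and -0.92. Fasn was at -2.05 and -2.52, Dhcr7 at -1.86 and -1.87, Acat2 at -1.50 and -1.88, and Scd2 at -2.00 and -2.36. The falls of these 4 genes were thus called with and without the trend. Of the genes named from the other lists, Scap and Mbtps2 in Siglec-F high and Elovl5 and Tecr in both comparisons lost their calls in this fit.

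**Figure D4:**
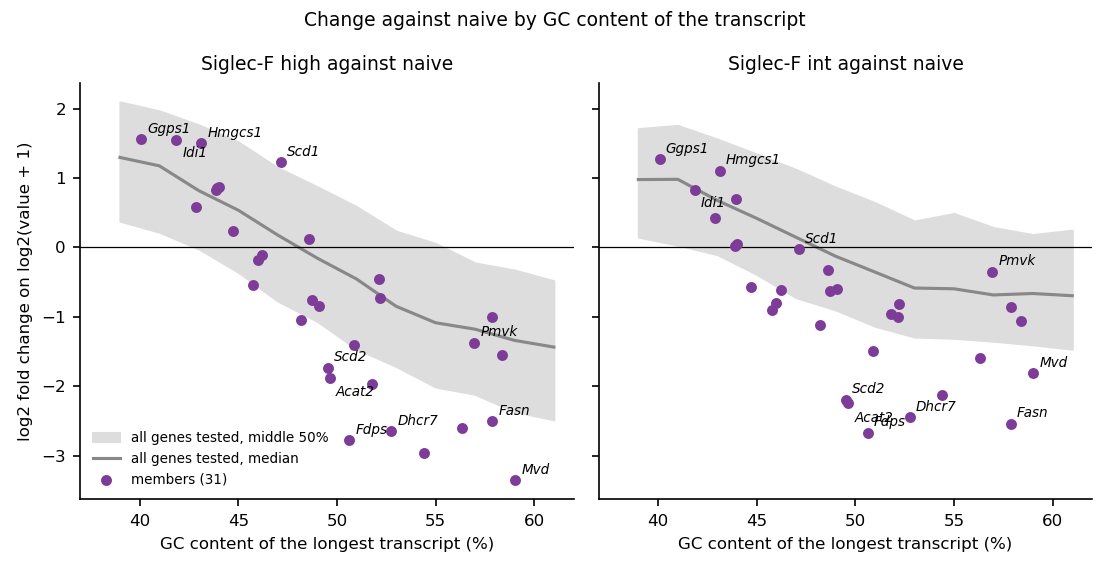
log2 fold change against naive by GC content of the longest transcript, for the 31 genes (purple points) over the median (line) and middle 50% (band) of all genes tested in GC bins of 2 percentage points, in Siglec-F high (left) and Siglec-F int (right). The points fall with GC content as the line does. By GC bin, 10 of the 31 genes lie below the middle 50% and 1 (Scd1) above it in Siglec-F high, and 13 lie below and 0 above in Siglec-F int, with Scd2, Acat2, Fdps, Dhcr7, Fasn, Mvk, Mvd, Nsdhl and Fads2 below in both. In each bin the band by definition leaves 50% of all genes tested outside it, split evenly below and above.

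Without Siglec-F high library 1, Acat2, Dhcr7, Fasn and Scd2 were at -1.45, -2.33, -1.92 and -1.87 in Siglec-F high, all still called.

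Markers of other cell types were counted in the same fits, where 14.7% of all genes were called higher and 16.6% lower in Siglec-F high. In Siglec-F int these shares were 12.0% and 10.3%. All 12 pigment cell markers fell in both comparisons. Oca2 (means of 119 in naive, 1.42 in Siglec-F high and 0.497 in Siglec-F int) and Mc1r (731, 3.16 and 5.25) passed the filter through naive. Their falls were thus favoured by how they entered the test. The 12 mesenchymal markers summed to 7263 to 8858 in naive, 26232 to 39018 in Siglec-F high and 11116 to 27271 in Siglec-F int, with 8 and 6 called higher. The 11 monocyte and macrophage markers summed to 5834 to 8907, 11846 to 16366 and 13599 to 53915, with 5 called higher in each comparison, and the top value came from Siglec-F int library 2. The 11 eosinophil markers summed to 268 to 742, 516 to 1156 and 194 to 419.7, and none of the 6 tested was called. Sums over 7 lymphocyte markers (114 to 242, 135 to 156 and 72.9 to 108), 8 epithelial markers (4925 to 8714, 5893 to 7466 and 3310.4 to 4186) and 5 endothelial markers (544 to 565, 546 to 693 and 372 to 467) held 1 call, Sftpa1, a surfactant protein, which fell in Siglec-F int, at -1.13 ± 0.31 (adjusted p = 0.0248). It was named after its values were seen, and the call was lost without any naive or Siglec-F int library (-1.22 to -1.01). The part of these cell types in the levels of the 31 genes was not tested.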

How the data were processed

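RNA of 9 libraries of sorted mouse lung cells (3 per group, 3 to 4 mice pooled per library) was sequenced after a Cell-seq library protocol, per the labels' protocols. Per the submitters' processing notes the tools were TopHat2 2.1.0, HTSeq and DESeq2 1.10.0, with build GRCm38. The deposited signal values are normalized counts per gene; reads were recovered from the step between low values of each library, and 100% of values up to 2000 reads came out whole (tolerance 0.05 read), with 1 read worth 0.316 to 2.61. Whether molecular identifiers or strand were used is not given in the sources used here.

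Of 54670 entries, 63 with a date as name (0.219% of the total), 116 that repeated a whole entry and 130 that repeated only its name and values were left out, which left 54361 genes, 99.9% of them in GENCODE M21. The 13642 genes with a mean of at least 5 were tested by limma 3.58.1 (R 4.3.3). The scale was log2(value + 1), the spread was shared by all 9 libraries and followed mean level, and tests were two-sided, with Benjamini-Hochberg adjusted p-values at 0.05. P-values measure the spread between pools. The procedure was tested on simulated data. Promoter and transcript sequences were searched on both strands and by shared 50-base windows. Figures were drawn with matplotlib 3.10.9.

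All 31 genes are named, and from each further list of sterol, fatty acid and efflux genes up to 3 called genes per direction with the smallest adjusted p. The members and lists, including those of eosinophil, pigment cell, mesenchymal, macrophage, lymphocyte, epithelial and endothelial markers, were chosen with earlier results of these data known. Other settings were pseudocounts of 0.5 and 5, other filters, equal totals, TMM, a fit of the groups compared, a replicate block, the removal of each library, and count models of the recovered reads by edgeR 4.0.16 or DESeq2 1.42.0. Added after seeing the data were a fit without library 1 of Siglec-F high and library 2 of Siglec-F int, and the removal of the trend of each library with transcript GC content and length (loess, span 0.3).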

Additional observations from a re-analysis of the deposited data

How the results depend on the processing

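None of the 15 genes called in Siglec-F high or the 7 called in Siglec-F int against naive changed direction under the 22 other settings, and 4 in each comparison kept their call in all of them. Fads2 was not tested at a minimum mean of 20, so 21 settings cover it. Over those settings 77 calls of single members were lost and 14 gained in Siglec-F high, and 20 lost and 32 gained in Siglec-F int. The depth of the shallowest library, 2205949 reads, limits low genes such as Fads2.

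In Siglec-F high against naive, a fit of only these groups called 2509 of all genes (4266 with all 9 libraries), 1 member higher among 1207 genes and 6 lower among 1302. edgeR called 7 members lower among 1378 genes, and removal of the GC and length trend 0 higher among 1347 and 6 lower among 1683. Leaving out 1 library at a time gave 2758 to 5096 genes, 0 to 4 members higher and 4 to 14 lower. In Siglec-F int against naive, the fit of only these groups called 4808 genes (3036 with all 9 libraries) and 13 members lower among 2669 genes. Without library 1 of Siglec-F high and library 2 of Siglec-F int there were 4822 genes, 2 members higher among 2154 and 13 lower among 2668. Equal totals, TMM, edgeR and DESeq2 each called 1 member higher, Hmgcs1, among 2007, 1990, 1837 and 2209 genes. Leaving out 1 library gave 1401 to 5301 genes, 0 to 3 members higher and 4 to 15 lower. The members' median of -0.82 was -0.55 with equal totals, -0.61 with TMM and -0.89 to -0.59 leaving out 1 library. In Siglec-F high against int, DESeq2 called 6 genes, and the members' median of 0.15 was 0.025 with equal totals, 0.054 with TMM and 0.061 to 0.21 leaving out 1 library.

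Equal totals moved the median of all genes from -0.11 to 0.02 in Siglec-F high and from -0.02 to 0.23 in Siglec-F int. The split of called genes, 1999 higher and 2267 lower in Siglec-F high, was 2141 and 1613 with equal totals and 2189 and 1839 with TMM. In Siglec-F int it was 1634 and 1402, then 2007 and 897 with equal totals and 1990 and 1020 with TMM.

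The replicate number as a block gave 3 members higher and 12 lower among 4317 genes in Siglec-F high, 0 higher and 7 lower among 3091 genes in Siglec-F int and 0 genes between them, and it changed no member's call. Of the other genes named, it ended the calls of Elovl7 in Siglec-F high (-2.40) and of Elovl5 (1.07) and Soat2 (2.19) in Siglec-F int. Deviations of same-numbered libraries of Siglec-F high and int correlated at 0.12, 0.14 and 0.07, and every library of these groups correlated best with its own number, while those with naive lay between -0.03 and 0.06. The numbers were not taken to pair the samples, so the main fit of Siglec-F high against int was unpaired. The block used the naive numbers as well, and a block for only Siglec-F high and int was not run.

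Signs changed only in members that were not called. In Siglec-F high, removal of the GC and length trend gave -0.040 for Sqle, -0.32 for Msmo1, -0.14 for Hsd17b7, -0.58 for Sc5d, -0.24 for Stard4 and -0.36 for Elovl6. Without those libraries of Siglec-F high (1) and Siglec-F int (2), Sqle was at -0.0017 and Msmo1 at -0.028. Cyp51 was at 0.026 with equal totals, 0.049 with edgeR and 0.0083 with DESeq2, and Insig2 at 0.28 with edgeR and 0.27 with DESeq2. Leaving out 1 library gave -0.077 to 0.28 for Sqle, -0.31 to 0.087 for Cyp51, -0.054 to 0.49 for Msmo1 and -0.86 to 0.22 for Insig2. In Siglec-F int, removal of the trend gave 0.59 for Pmvk, -0.68 for Hsd17b7, -0.43 for Sc5d, -0.10 for Stard4 and -0.87 for Elovl6. Scd1 was at 0.24 with equal totals, 0.17 with TMM, 0.19 with edgeR, 0.085 with DESeq2 and 0.25 with both libraries left out, and Elovl6 at -0.0043 with DESeq2. Leaving out 1 library gave -0.28 to 0.61 for Hsd17b7, -0.66 to 0.62 for Elovl6 and -0.18 to 0.25 for Scd1. The cause was not tested.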
